A study of Mus musculus with 24 samples.

Results

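The complement components described here are plasma proteins of innate immunity that the liver makes. Their genes were chosen by name for their place in the cascade, with earlier results of these data known. They are C1ra, C2, C3, C4a, C4b, C6, C8a, C8b, C9 and Hc, the mouse gene of C5. Of these 10 genes, 9 were found among the 25746 genes listed in the liver count tables, and all 9 passed the filter on low counts with 12330 genes in all. C4a was not analysed here.

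Complement is a chain of proteases and binding proteins that circulates in an inactive form. On a target surface the C1 complex cleaves C4 and C2, their fragments form a convertase that cleaves C3, and a C5 convertase then releases the fragment that starts the membrane attack complex of C5b, C6, C7, C8 and C9. Hepatocytes secrete most of these proteins into the blood, and macrophages and other cells make some of them as well.

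The study asked what losing the major urinary proteins (MUPs), small secreted carriers made by liver, does to metabolism and liver gene expression. The mice were C57BL/6N, 12 weeks old, fed standard chow, fasted for 4 h and scanned under isoflurane before blood was drawn from the heart. There were 4 groups of 6 mice: males and females carrying the intact Mup cluster (mWT, fWT) and males and females homozygous for its CRISPR/Cas9 deletion (mKO, fKO). Homozygous mice were bred by intercrossing heterozygotes, and the KO allele traces to a single male founder.

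Total counts per mouse ran from 15361901 to 26261394. Summed reads of the 22 Mup genes were 17028 to 37393 CPM (read counts scaled to the depth of each library) in mWT and 3395 to 5259 CPM in fWT, and at most 0.457 CPM in any KO mouse. The 4 Y-linked genes examined summed to 172 to 232 CPM in males and to at most 0.0754 CPM in females, so genotype and sex matched the labels in all 24 mice. Hepatocyte markers summed to 103817 to 162962 CPM, lymphocyte markers to at most 7.82 CPM and neutrophil markers to at most 3.46 CPM. Sequencing was of whole liver, where fewer cells of a type and less RNA per cell cannot be told apart.

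In the GRCm38 build (GENCODE M21 annotation) the members lie on 5 chromosomes. C8a (chr4:104815679-104876398, minus strand) and C8b (chr4:104766317-104804548, plus strand) are neighbours 11131 bp apart. Both are on the chromosome of the Mup cluster, with 42.6 Mb between C8b and Mup21, the nearer of the cluster genes measured against it. C6 (chr15:4727175-4814967, plus strand) and C9 (chr15:6445327-6498751, plus strand) are 1.63 Mb apart, and C7 is 173.8 kb from C6. C2 (chr17:34862604-34898265) and C4b (chr17:34728380-34743882) lie 118.7 kb apart on the minus strand of chromosome 17, which also carries C3 (chr17:57203970-57228136, minus strand). Hc is at chr2:34983331-35061438 on the minus strand and C1ra at chr6:124512405-124523443 on the plus strand.

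Promoters of the 5 members with the widest sex differences are shown, 4 of them of genes higher in males and 1, C3, of a gene higher in females. Each is the 250 bases before the gene's start in RefSeq (GRCm38.p6), 5′ to 3′ on the gene's strand: C6 chr15:4726960-4727209 (plus), C8a chr4:104876399-104876648 (minus), C8b chr4:104766067-104766316 (plus), C9 chr15:6445096-6445345 (plus) and C3 chr17:57228137-57228386 (minus). The windows of C6 and C9 run into the GENCODE spans given above, since RefSeq and GENCODE place these starts differently. Capitals mark letters that match a searched motif on either strand.
C6: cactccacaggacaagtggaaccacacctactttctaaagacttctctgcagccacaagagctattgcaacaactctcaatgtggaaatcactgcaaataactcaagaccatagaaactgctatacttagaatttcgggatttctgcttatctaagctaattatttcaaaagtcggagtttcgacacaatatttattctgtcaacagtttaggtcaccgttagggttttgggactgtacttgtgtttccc
C8a: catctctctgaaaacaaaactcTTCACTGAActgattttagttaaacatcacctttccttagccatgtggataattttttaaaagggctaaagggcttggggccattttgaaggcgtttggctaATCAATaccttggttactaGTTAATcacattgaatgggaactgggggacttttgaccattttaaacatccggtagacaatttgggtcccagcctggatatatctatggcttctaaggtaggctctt
C8b: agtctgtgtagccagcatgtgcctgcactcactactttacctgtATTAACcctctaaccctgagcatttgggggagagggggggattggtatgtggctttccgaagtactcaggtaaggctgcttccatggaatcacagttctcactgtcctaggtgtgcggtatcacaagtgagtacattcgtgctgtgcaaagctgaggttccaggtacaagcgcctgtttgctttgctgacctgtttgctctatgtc
C9: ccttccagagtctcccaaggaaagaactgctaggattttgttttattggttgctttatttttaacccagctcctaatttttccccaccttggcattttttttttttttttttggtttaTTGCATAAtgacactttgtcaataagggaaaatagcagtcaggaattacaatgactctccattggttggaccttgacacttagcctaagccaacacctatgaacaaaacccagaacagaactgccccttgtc
C3: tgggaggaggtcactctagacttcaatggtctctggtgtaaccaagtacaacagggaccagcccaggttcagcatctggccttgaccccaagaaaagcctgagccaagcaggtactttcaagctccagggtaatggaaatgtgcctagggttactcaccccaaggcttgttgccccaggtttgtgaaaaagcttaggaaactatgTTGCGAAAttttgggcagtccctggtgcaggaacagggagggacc

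The motifs searched were STAT5 (TTCNNNGAA), an HNF1 half-site (GTTAAT), HNF6 (ATCAAT) and C/EBP (TTGCNNAA), named for liver transcription factors. In C8a a STAT5 match began 228 bp, an HNF6 match 126 bp and an HNF1 half-site match 107 bp before the start. C8b held an HNF1 half-site match at 206 bp, C9 a C/EBP match at 132 bp and C3 a C/EBP match at 45 bp. The C6 window held none of these letters. Among the other members, Hc and C1ra held an HNF1 half-site match, and C2, C4a and C4b had no entry in the promoter table. The windows of Hc and C1ra also run into their GENCODE spans, and the C1ra match lies inside that span. Of 32851 promoter windows of this length, 7.02% held the STAT5 letters, 6.43% the HNF1 half-site, 6.72% HNF6 and 9.56% C/EBP, so each match is a description of the window and no evidence of binding.

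Levels can be compared between genes per kilobase of exon, as RPKM computed from the counts. The full exon length was used, also where 100-base stretches were identical to other transcripts (35.9% in C1ra, 35.5% in C2 and 15.2% in C4b). Reads there may go uncounted, so the places of C1ra, C2 and C4b in the orders below are uncertain. C3, the protein on which all activation routes converge, had the highest level in every group, at 1184 ± 179 RPKM in mWT and 2185 ± 111 RPKM in fWT (SD, n = 6). In mWT the order continued with C9 (254 ± 47.9 RPKM), C8a (237 ± 42.0), Hc (196 ± 23.1), C8b (180 ± 44.6), C4b (156 ± 22.6), C6 (98.1 ± 21.6), C1ra (73.7 ± 7.98) and C2 (39.4 ± 4.57). Each neighbouring pair from C9 to C1ra had overlapping ranges, and C3 and C2 stood clear of their neighbours. In fWT, C4b (153 ± 17.8 RPKM) and Hc (142 ± 13.4) came after C3 and overlapped each other. C9, C8b, C8a and C1ra followed at 89.6 to 64.0 RPKM with overlapping ranges, then C2 at 29.2 ± 3.83. C6 was last at 4.89 ± 1.66 RPKM, below every fWT value of C2. Summed CPM of the 9 members, as a percent of the scaled library, was 1.09% ± 0.134 in mWT and 1.10% ± 0.127 in mKO. It was between 1.30% and 1.49% in fWT mice and 1.45% ± 0.169 in fKO. C3 made up 55.7% ± 3.19 of the members' counts in mWT and 80.3% ± 1.11 in fWT.

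The sexes were compared first in WT mice. Of the 9 members 6 were higher in mWT than in fWT and 1 was lower (edgeR's quasi-likelihood test, Benjamini-Hochberg adjusted p under 0.05 over all genes). Across all genes tested 17.3% were called, 8.51% as higher and 8.81% as lower in males. The members' median log2 fold change was 0.46, beside -0.00 for all genes. In 6 members the ranges of mWT and fWT did not overlap, which held for 7.7% of all genes.

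C6, which binds C5b and begins assembly of the attack complex, had the widest sex difference of the members. In mWT it ranged from 279 to 478 CPM around a median of 322 CPM, and in fWT from 11.2 to 24.9 CPM around 16.0 CPM. Every male was thus more than 10 times above every female. The log2 fold change was 4.32 ± 0.26 (SE), which as a fold has a 95% interval of 13.9 to 28.9 (edgeR adjusted p = 1.84e-11). By this value C6 ranked 33 from the male-high end of 12330 genes. Depth was ample even at the low end, with 218 to 543 reads of C6 in each fWT mouse.

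C8a and C8b encode the alpha and beta chains of C8, the component that first penetrates the membrane. C8a ranged from 741 to 1131 CPM (median 804) in mWT and from 205 to 354 CPM (median 215) in fWT. C8b ranged from 353 to 668 CPM (median 424) in mWT and from 158 to 222 CPM (median 182) in fWT. For neither gene did the sexes overlap. C8a was 3.36-fold higher in males (log2 fold change 1.75 ± 0.19 SE, edgeR adjusted p = 4.69e-07), and C8b was 2.44-fold higher (1.29 ± 0.16 SE, edgeR adjusted p = 2.78e-06).

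C9, which polymerises into the pore wall, behaved likewise. It ranged from 481 to 847 CPM (median 662) in mWT and from 178 to 257 CPM (median 251) in fWT, again without overlap. The difference was 2.84-fold, with a log2 fold change of 1.51 ± 0.15 (SE) and an edgeR adjusted p of 4.09e-08. Hc, the precursor of C5a and C5b, differed less, at 1038 to 1448 CPM (median 1218) in mWT against 802 to 1030 CPM (median 882) in fWT. Its highest female value lay just under the lowest male value, and males were 1.38-fold higher (log2 fold change 0.46 ± 0.11 SE, edgeR adjusted p = 0.00417).

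C3 went the other way. In mWT it ranged from 4920 to 7023 CPM (median 6231), and in fWT from 10425 to 12037 CPM (median 11240). No male reached the lowest female. C3 was 1.85-fold lower in males (log2 fold change -0.88 ± 0.095 SE, edgeR adjusted p = 1.41e-07).

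Among the early components, C2, the protease part of the classical C3 convertase, was 127 to 175 CPM (median 152) in mWT and 96.7 to 129 CPM (median 112) in fWT. The ranges touched at their ends, and the mean was 1.35-fold higher in males (log2 fold change 0.43 ± 0.10 SE, edgeR adjusted p = 0.00388). C1ra, the protease that activates C1s within the C1 complex, was 220 ± 23.8 CPM in mWT and 191 ± 10.6 CPM in fWT (SD, n = 6). Its log2 fold change of 0.20 ± 0.073 (SE) did not pass the threshold (edgeR adjusted p = 0.0542), and it did pass in 7 of 21 alternative analyses. C4b, the partner of C2 in the convertase, was 890 ± 129 CPM in mWT and 872 ± 101 CPM in fWT, with a log2 fold change of 0.03 (95% interval -0.24 to 0.30, edgeR adjusted p = 0.908). Parts of 3 early genes are identical to other transcripts. Of stretches of 100 bases, 35.9% in C1ra were shared with C1rb or Gm18840, 35.5% in C2 with Gm20547 and 15.2% in C4b with C4a, so reads there cannot be assigned to 1 gene. No such stretch was found in C3, Hc, C6, C8a, C8b or C9.

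**Figure D1:**
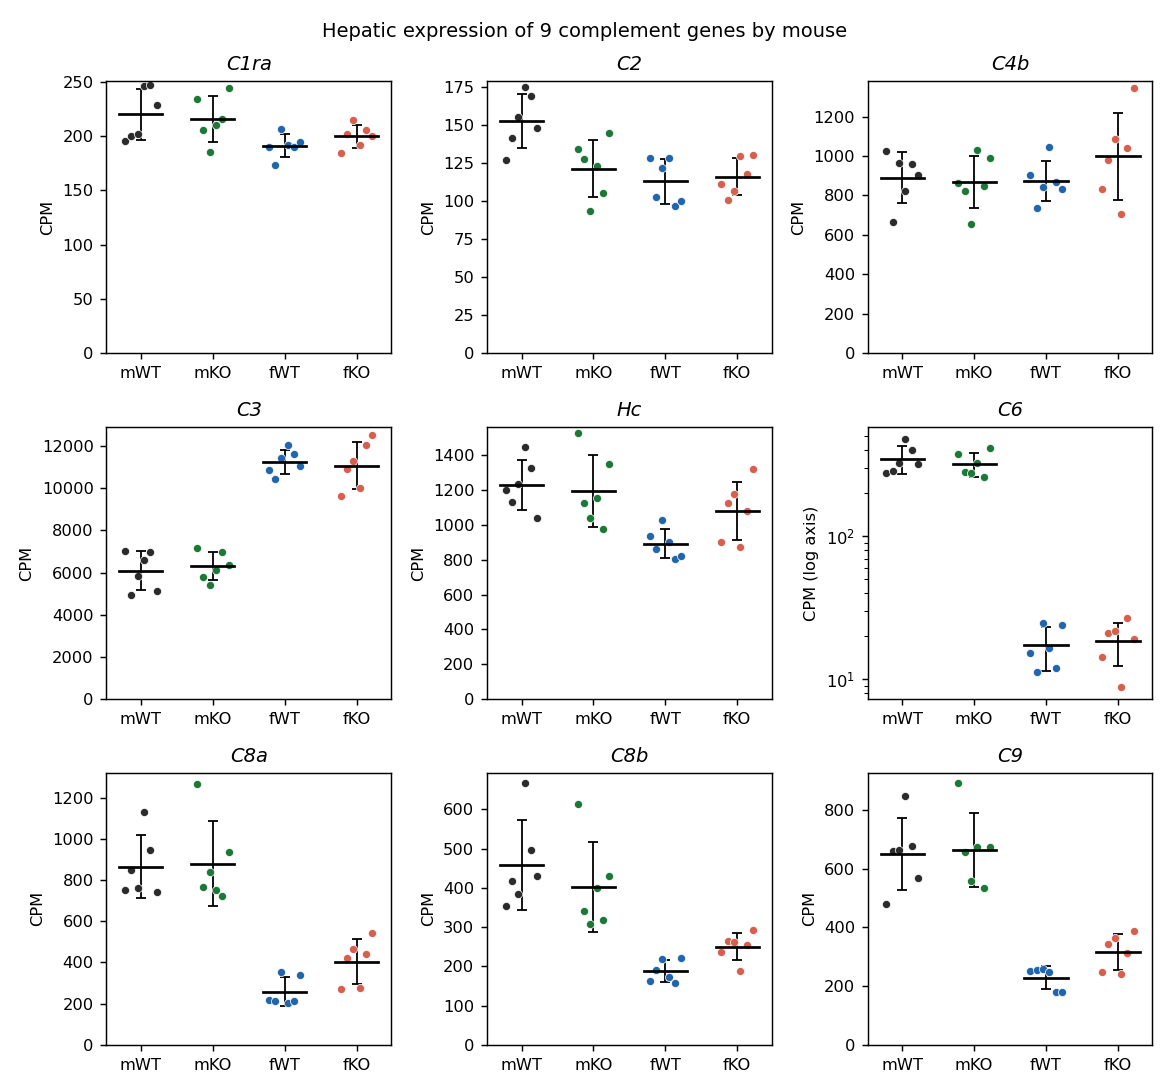
CPM of each member in each mouse, with 1 point per mouse, 1 panel per gene and a log axis for C6 only; bars are means and error bars SDs of 6 mice per group. C6, C8a, C8b and C9 were higher in all males than in any female, and C3 was lower in all males than in any female.

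In KO mice, 5 members differed between the sexes, 4 higher and 1 lower in mKO than in fKO (edgeR, adjusted p under 0.05). Of all genes 14.4% were called, 7.26% as higher and 7.13% as lower in males. The ranges of mKO and fKO did not overlap for these 5 members, as for 7.26% of all genes. The members' median log2 fold change was 0.15, beside -0.00 for all genes.

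C6 ranged from 261 to 413 CPM (median 304) in mKO and from 8.89 to 26.9 CPM (median 20.1) in fKO, a 17.2-fold difference (log2 fold change 4.11 ± 0.25 SE, edgeR adjusted p = 4.63e-11). C3 was 5417 to 7156 CPM (median 6249) in mKO and 9620 to 12525 CPM (median 11098) in fKO, 1.75-fold lower in males (edgeR adjusted p = 6.69e-07). Neither gene's sexes overlapped. For the C8 chains and C9 the fold was smaller in KO than in WT. C8a was 2.18-fold higher (log2 fold change 1.13 ± 0.19 SE, edgeR adjusted p = 1.49e-04), C9 2.10-fold higher (1.07 ± 0.15 SE, adjusted p = 8.05e-06) and C8b 1.61-fold higher (0.69 ± 0.16 SE, adjusted p = 0.00428) in mKO than in fKO. Hc had a log2 fold change of 0.15 (95% interval -0.08 to 0.37, edgeR adjusted p = 0.408) and C2 of 0.06 (-0.15 to 0.28, adjusted p = 0.722). C1ra, at 0.11, and C4b, at -0.20, did not pass either (edgeR adjusted p = 0.331 and 0.321).

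Deletion of the Mup cluster was compared with WT within each sex. In males no member was called at an edgeR adjusted p under 0.05, and none by DESeq2. The edgeR rule was one that called 0.211% of all genes. These were 26 genes, and 2 with the Mup genes removed, so the share depends on the deleted genes. At the study's unadjusted p under 0.01, which 3.52% of all genes passed, 1 member passed. No other passed at an unadjusted 0.05, which 10.6% of all genes did. That member was C2, at 93.7 to 145 CPM (median 125) in mKO against the mWT range given before. Of the 6 mKO mice 3 lay below every mWT mouse, and the other 3 were within the mWT range. Its log2 fold change was -0.33 ± 0.10 (SE, 95% interval -0.54 to -0.12, edgeR unadjusted p = 0.00345, adjusted p = 0.201). The unadjusted p was under 0.01 in 16 of 21 alternative analyses, and 0.0145 at the highest. The other 8 members had log2 fold changes of -0.19 (C8b) to 0.05 (C3) in males. The intervals ran from -0.57 to 0.34 for C6 and from -0.14 to 0.24 for C3, and the members' median was -0.03.

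In females no member was called by edgeR or DESeq2 either, beside 0.0892% of all genes by edgeR. These were 11 genes, and 0 with the Mup genes removed, so this share too depends on the deleted genes. An unadjusted p under 0.01 was found for 2 members, beside 0.876% of all genes. C8a ranged from 271 to 542 CPM (median 432) in fKO against 205 to 354 CPM in fWT. Of the fKO mice 4 exceeded every fWT mouse, and the other 2 lay within the fWT range. The log2 fold change was 0.65 ± 0.19 (SE, 1.57-fold, 95% interval 1.20 to 2.05, edgeR unadjusted p = 0.00203, adjusted p = 0.929). The unadjusted p was 0.00796 at the highest over 21 alternatives. C9 was 242 to 387 CPM (median 328) in fKO against 178 to 257 CPM in fWT, with 4 of 6 fKO mice above the fWT range. Its log2 fold change was 0.47 ± 0.15 (SE, edgeR unadjusted p = 0.00363, adjusted p = 0.929), and the unadjusted p stayed under 0.01 in 15 of 21 alternatives. C8b (0.41 ± 0.16 SE, edgeR unadjusted p = 0.0164) and Hc (0.28 ± 0.11 SE, unadjusted p = 0.0188) passed only at an unadjusted 0.05, which 4 members did in all, beside 4.87% of all genes. C8b was 189 to 292 CPM in fKO against 158 to 222 CPM in fWT, overlapping. C3, C2, C6, C1ra and C4b had log2 fold changes of -0.02, 0.04, 0.11, 0.07 and 0.20 in females. The members' median was 0.20, beside -0.00 for all genes.

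The difference between the male and female KO effects, which is also the difference between the sex effects in KO and WT mice, was tested as an interaction. No member was called by edgeR (0.00811% of all genes) or by DESeq2 and none had an unadjusted p under 0.01 (1.16% of all genes). At an unadjusted 0.05, which 5.96% of all genes passed, there were 4, all negative on the log2 scale. They were C8b (-0.60 ± 0.23 SE, edgeR adjusted p = 0.816, unadjusted p = 0.0135), C2 (-0.37 ± 0.15, 0.822 and 0.0172), C8a (-0.62 ± 0.26, 0.823 and 0.0269) and C9 (-0.43 ± 0.20, 0.829 and 0.0444). That Hc and C2 were called between the sexes in WT and not in KO was thus not shown as a difference between genotypes (Hc interaction -0.32, 95% interval -0.64 to 0.00, adjusted p = 0.832). For C6 the interval of the interaction was -0.88 to 0.45 and for C3 -0.20 to 0.35. The 2 KO effects and the 2 sex effects share groups, and their values are given side by side without a test of likeness.

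**Figure D2:**
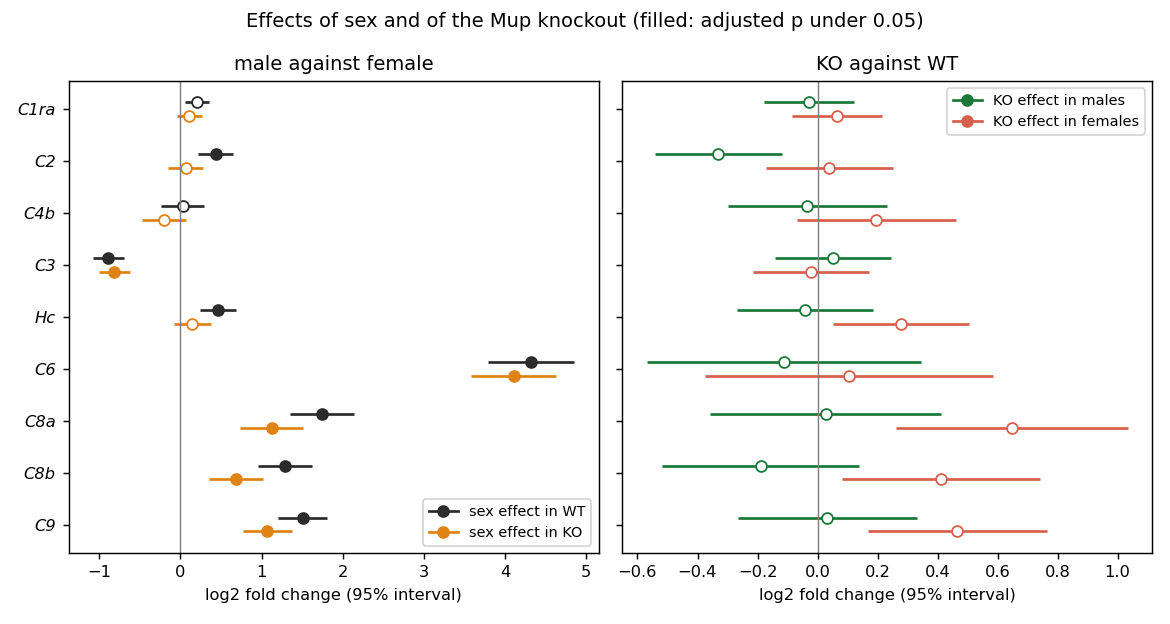
Log2 fold changes of the 9 members with 95% intervals from edgeR, male against female on the left and KO against WT on the right; filled points have an adjusted p under 0.05. Both sex effects put C6 furthest to the right and C3 to the left of 0, and no KO effect was called.

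The members' variation from mouse to mouse within groups was compared by correlation. After each group's mean was removed from log2 CPM, all 36 pairs of members had a positive Pearson r over the 24 mice, from 0.21 to 0.85 with a median of 0.54. By permutation test within groups, 23 pairs had an adjusted p under 0.05 for r and 19 for Spearman's rho, adjusted over the 36 pairs. Over all pairs of the 12330 genes tested, the median r was -0.001, and 7.23% of pairs reached 0.42, the lowest r among those 23. These pairs were not matched to the members for expression level or cell type, and the positive correlation is not shown to be particular to the members. All 24 libraries are whole liver and were sequenced in 1 run, so the pairs share these sources of variation.

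The highest pair was Hc and C9 (r = 0.85, permutation p = 2.00e-05, adjusted p = 2.40e-04, and rho = 0.83, adjusted p = 1.80e-04). Without the 2 mice furthest from the median of Hc, r was 0.80, and it was 0.81 within males and 0.90 within females. The neighbours C8a and C8b followed (r = 0.81, permutation p = 1.00e-05, the smallest the 100000 resamples could give, adjusted p = 1.80e-04, and rho = 0.77), with r = 0.90 in males and 0.87 in females. C6 and C8a, on different chromosomes, also reached r = 0.81 (adjusted permutation p = 7.20e-04, rho = 0.80), and 0.77 and 0.83 within the sexes. Individual mice stood out in several of these genes at once. In mWT, mouse 4 was highest for C6, C8a, C8b, C9 and Hc, and in mKO mouse 1 was highest for C8a, C8b, C9 and Hc. Among fKO, mice 1 and 4 were the lowest for C6, C8a, C9 and Hc, and mouse 6 was highest for C8a, C8b, C9, Hc, C3 and C4b.

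C4b and C3, the homologous thioester proteins, had r = 0.66 (adjusted permutation p = 0.00327, rho = 0.56). The lowest pair was C2 and C8a (r = 0.21, adjusted permutation p = 0.341), with 0.58 in males and -0.08 in females. C2 and C6 (r = 0.26, adjusted permutation p = 0.246) had r = 0.84 in males and -0.08 in females, a difference between the sexes that was not tested.

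**Figure D3:**
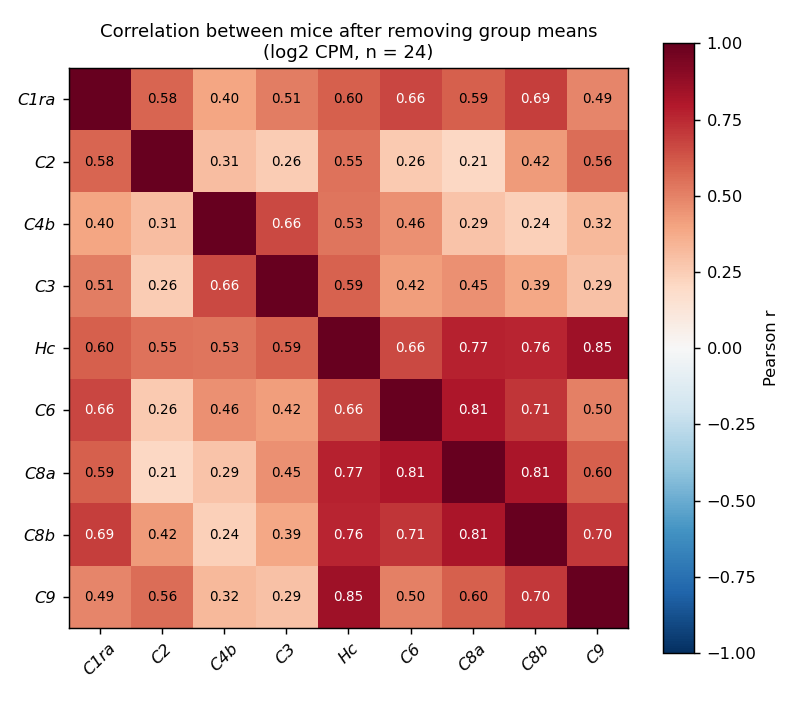
Pearson r between each pair of the 9 members over 24 mice, from log2 CPM with group means removed, on a colour scale from -1 to 1. All pairs were positive, and pairs among Hc, C6, C8a, C8b and C9 ran from 0.50 to 0.85.

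Other genes with the most similar variation are given as a description, by r of log2 CPM with group means removed over the 24 mice. For C6 they were Slco1a1 (0.84), an organic anion transporter, P4ha2 (0.81) and Pitpnm1 (0.78). C8a was nearest to Cyp2c23 (0.77), a cytochrome P450, and Slco1a1 (0.77). Hpx, which binds heme in plasma, was the gene most like Hc (0.85) and C8b (0.76). C9 was nearest to Fam167a (0.77), Serpina10 (0.76) and Spn (0.76). C3 was nearest to Itih4 (0.86), an acute phase protein, and C4b to Stat3 (0.88), a transcription factor of the acute phase. C2 was nearest to Orm1 (0.79), and C1ra to Gm20547 (0.89), which shares sequence with C2, and to Cfb (0.87), the alternative pathway's counterpart of C2.

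The rest of the complement system was read from a list of 45 genes, of which 44 were in the files and 37 were tested. In WT 2 were higher and 12 lower in males, beside 8.51% and 8.81% of all genes. The median log2 fold change of the 37 was -0.15 where the members had 0.46. In KO mice 1 was higher and 7 lower, beside 7.26% and 7.13% of all genes. Neither KO effect nor the interaction called any of the 37 (edgeR, adjusted p under 0.05). At an unadjusted 0.05, 2, 5 and 1 passed in males, in females and in the interaction, beside 10.6%, 4.87% and 5.96% of all genes. At the study's unadjusted 0.01 these were 2, 1 and 0, beside 3.52%, 0.876% and 1.16%. In males they were Mbl1 (log2 fold change 0.36, edgeR unadjusted p = 6.93e-04, adjusted p = 0.122) and C8g (0.22, 0.00668 and 0.242). In females it was C4bp (0.17, 0.00739 and 0.929).

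Of the remaining terminal genes, C7 was low (1.06 ± 0.73 CPM in mWT, 0.935 ± 0.46 in fWT, SD, n = 6) and was not called. C8g, the gamma chain of C8, was 293 ± 7.63 CPM in mWT and 300.4 ± 25.5 CPM in fWT (log2 fold change -0.04 ± 0.073 SE, edgeR adjusted p = 0.786). In KO mice C8g was 340 ± 24.7 CPM in males and 302 ± 33.3 CPM in females (0.17 ± 0.073 SE, edgeR unadjusted p = 0.0248, adjusted p = 0.116). The other 2 chains of the same protein were the male-high C8a and C8b. In the classical route, C1qa (-0.79), C1qc (-0.72) and C1qb (-0.65), the recognition subunits, were lower in WT males on the log2 scale. C1s1, the protease that C1r activates, was higher (0.21 ± 0.067 SE, edgeR adjusted p = 0.0329). It lies 6.9 kb from C1ra.

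In the lectin route, 4 of 7 tested genes were lower in WT males, Mbl2 (-0.80 ± 0.092 SE on the log2 scale), a mannose-binding lectin, Colec10 (-0.53) and Colec11 (-0.47) with the largest changes. In the alternative route both tested genes were lower, Cfp (-0.88), which encodes properdin and stabilises the convertase, and Cfb (-0.32 ± 0.075 SE). Among 11 soluble regulators, C4bp was higher (0.33 ± 0.058 SE) and Cfi, which cleaves C3b and C4b, was lower (-0.26 ± 0.078 SE). Of 6 receptors tested Vsig4 (-1.05) and Itgb2 (-0.90) were lower, and no membrane regulator was called in WT. In KO mice C4bp was higher in males (0.22), and Mbl2 (-0.75), Colec10 (-0.33), Colec11 (-0.35), Cfb (-0.39), Cfi (-0.31), Cr1l (-0.17) and Itgam (-1.68, at 0.454 and 1.52 CPM) were lower. Itgam was low and uneven, with overlapping ranges of 0.265 to 0.707 CPM in mKO and 0.473 to 4.21 CPM in fKO (edgeR adjusted p = 0.0480). Its WT sex effect was 0.03.

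**Figure D4:**
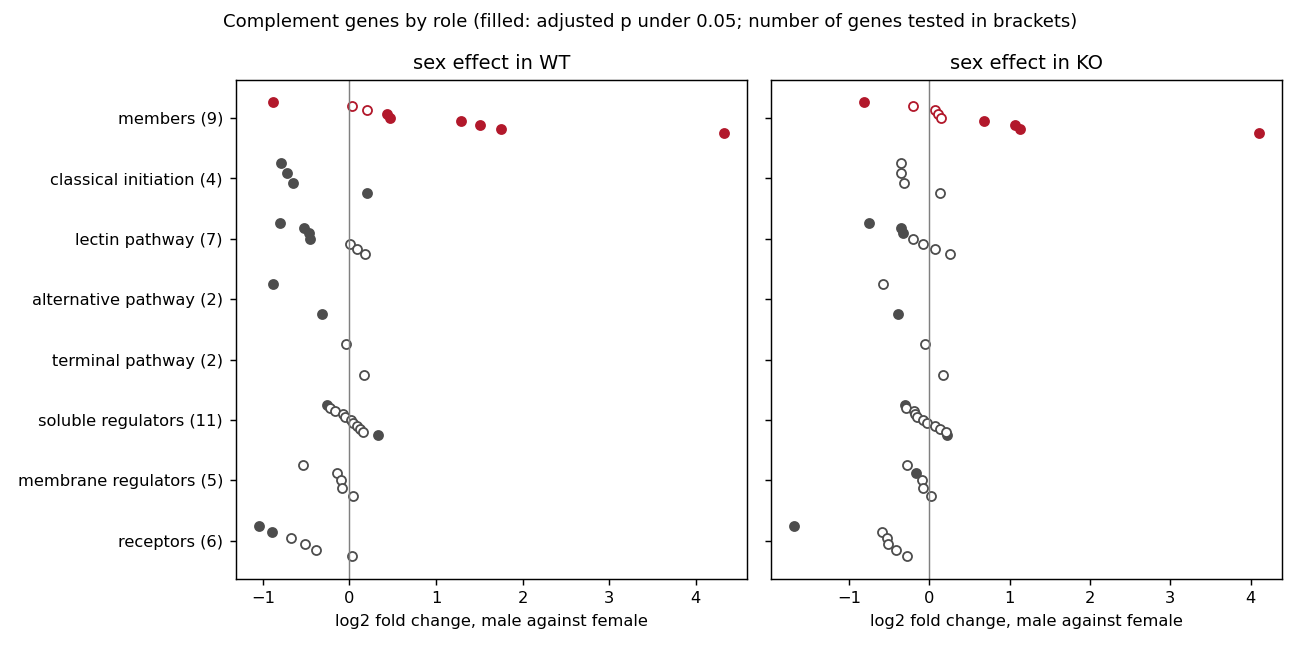
Log2 fold change of male against female for the 9 members (red) and 37 other complement genes by role, in WT on the left and KO on the right; filled points have an edgeR adjusted p under 0.05. The male-high members C6, C8a, C9 and C8b lie to the right of all other complement genes in both genotypes.

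Markers of other liver cells moved with the sex comparison. In WT males 5 of 8 Kupffer cell markers were lower (Clec4f, Cd5l, Csf1r, Cd68 and Vsig4), and in KO none were called. All 8 were nevertheless below 0 on the log2 scale in KO as well, with a median of -0.45 beside -0.79 in WT and 2 at an unadjusted p under 0.05, and no marker had an interaction p under 0.05 (edgeR, all unadjusted). Their sum was 81.8 to 165 CPM in mWT, 149 to 273 in fWT, 77.5 to 217 in mKO and 123 to 219.6 in fKO, with no marker at 0 throughout. Endothelial markers had 4 of 8 lower in WT males and 2 in KO, and stellate markers 2 and 3 of 8. One of 3 tested cholangiocyte markers was lower in WT. Of 7 hepatocyte markers, Serpina1c was higher and Ahsg lower in males in both genotypes, and Ttr was higher in KO males (0.42 on the log2 scale, edgeR adjusted p = 0.00342). Vsig4 is also counted among the complement receptors. The part of these shifts in the values of the members and of the other complement genes was not tested.

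Of 21 acute phase genes, which liver induces in inflammation, 1 was higher (Saa4, 0.61) and 5 lower in WT males, beside 8.51% and 8.81% of all genes. In KO males 8 were lower, beside 7.13% of all genes. The lower genes in both included Itih4 (-0.66 and -0.74 on the log2 scale), Apcs (-0.83 and -1.08), Orm3 (-1.45 and -1.96) and Lbp (-0.79 and -0.45). No acute phase gene was called by edgeR in a KO effect. At an unadjusted p under 0.05 there were 5 in males and 3 in females, all higher in KO, beside 10.6% and 4.87% of all genes. At the study's unadjusted 0.01 there were 3 and 0, beside 3.52% and 0.876%. The sum of the 21 genes was 18565 to 24241 CPM in mWT, 20785 to 28523 in mKO, 23065 to 25170 in fWT and 23033 to 34657 in fKO. Its part in the members' values was likewise not tested.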

How the data were processed

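Liver RNA of 24 mice was sequenced as stranded, poly(A)-selected single-end reads. Per the study's methods, the authors trimmed reads with fastp (version 0.20 in the submitters' processing notes), aligned them with STAR (2.7a) to GRCm38.p6 and counted them per gene with featureCounts, and they deposited raw counts per gene for each mouse. GENCODE M21 gave names for 25635 of 25746 identifiers, and 111 were not matched. From the counts, edgeR 4.0.16 (R 4.3.3, TMM scaling, robust quasi-likelihood fit over all 24 mice, 1 mean per group) tested genes past a filter. Genes were kept that reached 0.66 CPM in 6 or more of 24 mice, the numbers in the study's methods. The study reported more expressed genes than the 12330 kept here, so the gene sets differ. Shares at the study's cut-off are over the genes kept here and are not the study's own counts. p-values were adjusted by Benjamini-Hochberg over 12330 genes. Standard errors were derived from the F statistic. RPKM is TMM-scaled CPM per kilobase of merged exons, and log2 CPM used a prior count of 2. Correlations used 100000 permutations within groups (scipy 1.17.1).

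Alternatives were DESeq2 1.42.0, its size factors, no scaling, no filter or filterByExpr, non-robust dispersions, only the groups compared, removal of Mup genes, a replicate block and leaving out each mouse. The fits were tested on simulated data with changes between the sexes only, which does not show how well small KO effects are found. The mice of a group are separate animals, and no 2 of them had counts within sampling noise. Mouse numbers did not pair mice: same-numbered mice of compared groups had correlations of deviations from -0.335 to 0.169.

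All members are named. Other complement genes are named by role as the up to 3 called genes with the largest absolute change. Listed genes were counted, and for each member up to 3 genes most like it are named. C7, C8g and C1s1 were also described for their place beside members. Mbl1, C8g and C4bp were named for an unadjusted p under 0.01 in a KO effect. Cell marker and acute phase genes named beside a count were chosen after their values were seen. Members and lists were chosen with earlier results of these data known. The share of C4 reads on C4a and the summed C4 counts had been planned and were not run, since C4a was not analysed here.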

Additional observations from a re-analysis of the deposited data

How the results depend on the processing

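The number of members called was the same in all alternatives (5, 0, 0 and 0 for the sex effect in KO, both KO effects and the interaction) except for the sex effect in WT, where it was 7 or 8, the 8th being C1ra under DESeq2 (adjusted p = 0.0261), DESeq2 size factors (0.0474), removal of the Mup genes (0.0496) and without mWT 1, 2 or 3 or fWT 3. The replicate block kept 7, 5, 0, 0 and 0 calls, but the mouse numbers do not pair the mice (at most 1 of 6 mice correlated best with its own number), and over all genes it moved the sex effect in KO from 1774 to 985 calls. Members with an unadjusted p under 0.01 were 0 in place of 1 for the KO effect in males under the replicate block, 1 in place of 2 for females with no scaling, and 1 in place of 0 for the interaction under DESeq2 and under the replicate block. Leaving out single mice gave 0 to 1 (0 without mWT 4, mWT 5, mKO 3 or mKO 5), 1 to 4 (1 without fWT 5, fWT 6, fKO 3 or fKO 6, and 4 without fKO 4) and 0 to 2 (2 without mWT 1 or mKO 1, 1 without mKO 6, fWT 3, fWT 6 or fKO 4), respectively. With no scaling, C2 in the KO effect in females reversed to -0.0166 and C4b in the sex effect in WT to -0.0125, and the WT sex split over all genes moved from 1049 higher and 1086 lower to 763 and 1275. Uncalled log2 fold changes that reversed when 1 mouse was left out ranged, for the KO effect in males, from -0.0646 to 0.0132 for C1ra, from -0.00296 to 0.0962 for C3, from -0.105 to 0.0349 for C4b, from -0.106 to 0.120 for C8a, from -0.0697 to 0.123 for C9, from -0.123 to 0.0114 for Hc, for the KO effect in females from -2.38e-04 to 0.0793 for C2, from -0.0618 to 0.0152 for C3, from -0.0329 to 0.252 for C6, and for the sex effect in WT from -0.0155 to 0.0997 for C4b. The cause of these shifts was not tested. Over all genes, KO calls in males were 26, and 142 under DESeq2, 48 with only the groups compared and 2 without Mup genes, those in females 11, and 18 and 0 under DESeq2 and without Mup genes, and for the interaction 1, and 10 under DESeq2. Correlated pairs were 23, and 22 with DESeq2 size factors. The C4a alternatives were not run. Groups of 6 mice limit the KO effects: the widest 95% interval, that of C6 in females, ran from -0.38 to 0.59 on the log2 scale. By Dixon's ratio, none of 36 sets of 6 values (9 members in 4 groups) reached the cut-off for an outlying mouse. With 6 values this ratio can miss a mouse that lies apart, and mice that lie apart together can hide each other. For C8a, mKO mouse 1 was at 1267 CPM and the next highest mKO mouse at 936 CPM. For C8a in fWT, mice 3 and 6 were at 354 and 341 CPM and the others at 205 to 217 CPM.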
